A study of Mus musculus with 21 samples.

Results

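The 10 genes described here were Raly and 9 genes of the heterogeneous nuclear ribonucleoprotein (hnRNP) family, Hnrnpa1, Hnrnpa2b1, Hnrnpc, Hnrnpd, Hnrnpf, Hnrnph1, Hnrnpk, Hnrnpl and Hnrnpu, followed from mouse gametes to the blastocyst. They were chosen by name, as RNA-binding proteins of splicing among which the study singled out Raly, and make up 10 of the 10928 genes with a transcript in the merged long-read annotation. A merged transcript was given to a gene when an exon of it overlapped an exon of the GENCODE vM21 gene (mm10) on the same strand, which gave the 10 genes 57 of the 22612 merged transcripts. The level of a gene was the summed TPM of its transcripts, TPM being the length-scaled share of a transcript in its library. All 10 genes passed the filter on low values, which asked for 1 TPM or more in 2 or more of the 12 libraries between oocyte and blastocyst.

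Sperm, oocytes and embryos of 5 stages were compared, with 2 short-read libraries (amplified from pools of cells by Smart-seq2) and 1 long-read pool per stage. The MII oocytes came from C57BL/6J females aged 3–5 weeks that had received 7.5 IU PMSG and then hCG, and were taken 20 h after hCG. The embryos came from such females crossed with DBA/2 males, were cultured in KSOM and were collected at 24–26 h (1-cell), 46–48 h (2-cell), 54–58 h (4-cell), 68–70 h (8-cell) and 94–96 h (blastocyst) after hCG. Sperm was taken from the epididymis of DBA/2 males, so sperm and oocytes also differ in strain, the embryos are hybrids of both strains, and beyond superovulation no group was treated or carried a mutation. The 2 libraries of a stage are batches of pooled cells, so the p-values below measure the spread between such batches, which may in part be technical.

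hnRNPs coat nascent transcripts in the nucleus and take part in the choice of splice sites, in 3′ end formation and in the export, stability and translation of mRNA. Most carry RNA-recognition motifs or KH domains joined to glycine-rich or charged regions, and many are themselves made as several isoforms that differ in such a region. The oocyte enters development with a store of maternal mRNA and little transcription, and the embryo begins to transcribe its own genome mainly at the 2-cell stage in the mouse, so levels up to the 1-cell stage describe mostly inherited RNA.

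Of the 12 libraries from oocyte to blastocyst, 2 stood apart. 2-cell replicate 1 correlated with its partner at r = 0.72 over log2(TPM + 1) of transcripts, and its 7 markers of the 2-cell embryo summed to 29.4 TPM against 464 TPM in replicate 2. Blastocyst replicate 2 correlated with the sperm libraries at r = 0.54 and 0.58, where the 10 libraries other than these 2 gave 0.17–0.45, and it held 15040 TPM of Krt8 and 20177 TPM of Krt18 against 3504 and 5733 TPM in replicate 1. Of the other blastocyst markers, Cdx2 and Tfap2c were also higher in blastocyst replicate 2. Nanog (30.9 against 73.7 TPM in replicate 1), Gata6 (43.2 against 54.2 TPM) and Dppa1 (113 against 503 TPM) were lower. The 9 oocyte markers and the 7 measured blastocyst markers had their highest sums in the libraries of those names, and the 8 sperm markers summed to 17536 and 21334 TPM in sperm and to at most 46.4 TPM elsewhere. Both sperm libraries also held the 5 measured markers of epididymis and leukocytes (2201 and 366 TPM in sum), so the sperm levels below may include RNA of other cells, which was not tested. Of 8 cumulus cell markers only Ptgs2 was measured, at no more than 0.48 TPM from oocyte to blastocyst. The TPM values carry no read counts, so the number of reads behind a single value is unknown.

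Raly encodes a close relative of hnRNP C that binds uridine-rich RNA, and its gene lies beside agouti on chromosome 2 (chr2:154791096-154867261, + strand). Its TPM was 142 and 49.2 in the oocyte libraries, 45.5 and 61.6 at the 1-cell, 66.9 and 19.5 at the 2-cell, 16.5 and 7.19 at the 4-cell, 11.7 and 23.6 at the 8-cell and 37.3 and 272 at the blastocyst stage, with 99.1 and 73.0 in sperm. Both 4-cell libraries lay below both oocyte libraries. The stage means ran, from high to low, blastocyst (155 ± 166, SD, n = 2), oocyte (95.4 ± 65.3), sperm (86.1 ± 18.4), 1-cell (53.6 ± 11.4), 2-cell (43.2 ± 33.5), 8-cell (17.7 ± 8.38) and 4-cell (11.8 ± 6.56). Of the neighbours in this order, only sperm and 1-cell had libraries that did not overlap. The high blastocyst mean rests on replicate 2, which stood apart.

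Hnrnpa1 and Hnrnpa2b1 encode the A/B-type proteins, which bind UAGG-like elements and often oppose exon inclusion. Hnrnpa1 (chr15:103240432-103246692, + strand) measured 254 and 262 TPM in oocytes, 259 and 151 in 1-cell, 60.1 and 310 (309.7) in 2-cell, 1163 and 1162 in 4-cell, 788 and 532 in 8-cell embryos and 665 and 120.2 in blastocysts, against 18.5 and 5.86 in sperm. Hnrnpa2b1 (chr6:51460932-51469894, − strand) measured 76.5 and 124 TPM in oocytes, 73.8 and 78.6 in 1-cell, 153 and 194 in 2-cell, 1034 and 930.1 in 4-cell, 925 and 181 in 8-cell embryos and 329 and 145 in blastocysts, and 243 and 153 in sperm. Each gene was highest in the 4-cell libraries. The 8-cell libraries of Hnrnpa2b1 differed 5.10-fold, and this gap came from a transcript that lacks the annotated start codon. Without the 3 such transcripts of the gene, Hnrnpa2b1 measured 25.2 and 77.9 TPM in oocytes, 356 and 293 at the 4-cell, 286 and 176 at the 8-cell and 138 and 126 at the blastocyst stage.

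Hnrnpc, whose product binds uridine tracts and packages long transcripts, and Hnrnpd, whose product AUF1 binds AU-rich elements and takes part in mRNA turnover, differed in when their levels moved. Hnrnpc (chr14:52073377-52104028, − strand) measured 105 and 44.4 TPM in oocytes, 112 and 96.7 in 1-cell, 51.1 and 111 in 2-cell, 399 and 359.8 in 4-cell, 254 and 236 in 8-cell embryos and 246 and 66.1 in blastocysts, and 15.5 and 4.03 in sperm. Hnrnpd (chr5:99955935-99978938, − strand) measured 6.92 and 8.38 TPM in oocytes, 9.38 and 14.4 in 1-cell, 87.3 and 47.4 in 2-cell, 99.9 and 66.5 in 4-cell, 140.2 and 62.4 in 8-cell embryos and 71.6 and 62.9 in blastocysts, and 11.9 and 9.22 in sperm. Every Hnrnpd library from the 2-cell stage on lay above every earlier one, whereas the Hnrnpc libraries of the 2-cell stage still overlapped those of the oocyte.

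Hnrnpf and Hnrnph1 encode the F/H-type proteins, which bind runs of guanines. Hnrnpf (chr6:117900324-117925622, + strand) measured 127 and 526 TPM in oocytes, 173 and 211 in 1-cell, 270.4 and 282 in 2-cell, 458 and 417 in 4-cell, 299.2 and 299.6 in 8-cell embryos and 474 and 160.4 in blastocysts, and 89.1 and 262 in sperm. Hnrnph1 (chr11:50376990-50386528, + strand) measured 15.9 and 33.5 TPM in oocytes, 26.9 and 15.8 in 1-cell, 10.3 and 56.8 in 2-cell, 100.2 and 101.5 in 4-cell, 113 and 76.0 in 8-cell embryos and 132 and 37.7 in blastocysts, and 42.3 and 33.7 in sperm. Hnrnpf was already abundant in the oocyte, where its 2 libraries differed 4.13-fold, while the Hnrnph1 libraries from the 4-cell stage on lay above both oocyte libraries.

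Hnrnpk, Hnrnpl and Hnrnpu encode a KH-domain protein that binds cytosine-rich RNA, a protein that binds CA repeats, and a nuclear scaffold protein that binds both DNA and RNA. Hnrnpk (chr13:58391142-58403343, − strand) measured 244 and 752 TPM in oocytes, 171 and 191 in 1-cell, 129 and 179 in 2-cell, 358 and 347 in 4-cell, 362 and 394 in 8-cell embryos and 798 and 247 in blastocysts, and 129 and 55.6 in sperm. Hnrnpl (chr7:28808541-28822266, + strand), the gene of the lowest mean level in oocytes, measured 6.09 and 2.12 TPM in oocytes, 3.33 and 2.88 in 1-cell, 13.8 and 13.4 in 2-cell, 27.2 and 41.1 in 4-cell, 40.4 and 18.6 in 8-cell embryos and 17.6 and 17.3 in blastocysts, and 8.67 and 8.44 in sperm. Hnrnpu (chr1:178321108-178337797, − strand) measured 30.1 and 64.0 TPM in oocytes, 25.3 and 108 in 1-cell, 323 and 92.2 in 2-cell, 248 and 173 in 4-cell, 164 and 164 in 8-cell embryos and 125 and 121 in blastocysts, and 16.3 and 38.7 in sperm. Hnrnpk thus had its widest gaps within the oocyte and the blastocyst (3.09-fold and 3.23-fold), whereas every Hnrnpl library from the 2-cell stage on lay above every earlier one.

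**Figure D1:**
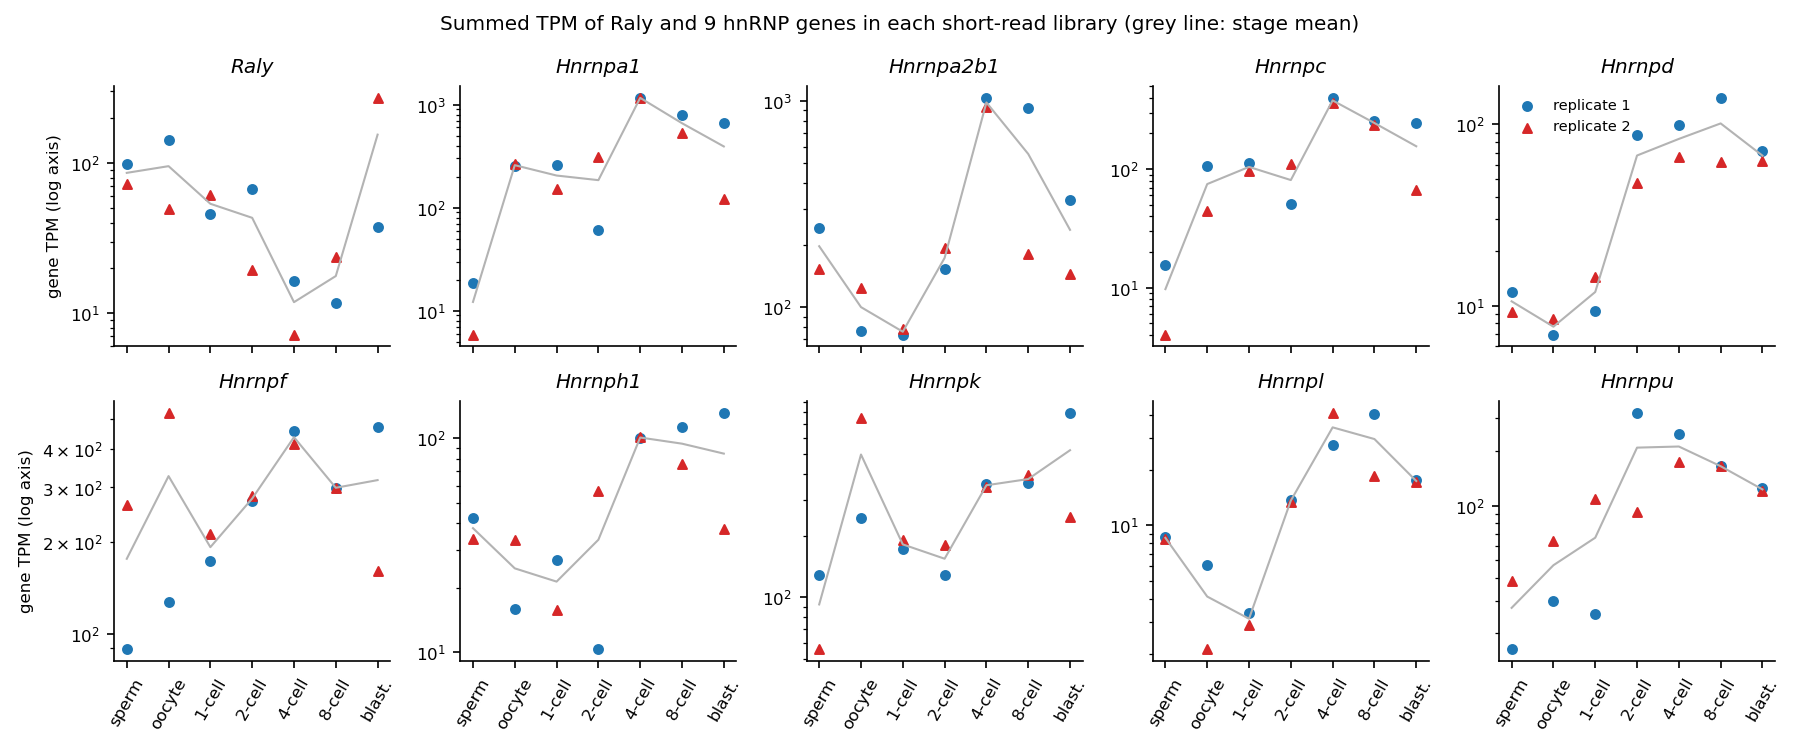
Summed TPM (log axis) of Raly and the 9 hnRNP genes in each of the 14 short-read libraries by stage, with circles for replicate 1, triangles for replicate 2 and a grey line through the stage means. Raly runs lowest at the 4-cell stage (16.5 and 7.19 TPM), where Hnrnpa1 (1163 and 1162 TPM) and Hnrnpa2b1 (1034 and 930.1 TPM) are highest.

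TPM is scaled by transcript length, so levels can also be compared between the genes within a stage. The 10 genes summed to 1008 and 1866 TPM in the oocyte libraries, 899 and 931 at the 1-cell, 1165 and 1305 at the 2-cell, 3904 and 3605 at the 4-cell, 3097 and 1987 at the 8-cell and 2895 and 1249.7 at the blastocyst stage. In oocytes the highest mean level was that of Hnrnpk (498 TPM), followed by Hnrnpf (327 TPM) and Hnrnpa1 (258 TPM), with Raly in place 5 of 10. At the 4-cell stage Hnrnpa1 (1163 TPM) and Hnrnpa2b1 (982 TPM) led and Raly was the lowest of the 10. The place of Hnrnpa2b1 rests on a transcript that lacks the annotated start codon, with a mean of 609 TPM. Without its transcripts of that kind Hnrnpa2b1 measured 356 and 293 TPM, below the means of Hnrnpf (437 TPM) and Hnrnpc (379 TPM). Processed pseudogenes of several hnRNP genes, Hnrnpa1 among them, carry near-identical sequence, so reads of such copies could have been counted here. As these were bulk libraries, fewer cells of a type and less RNA per cell cannot be told apart.

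The change from oocyte to 4-cell embryo compares the maternal store with embryos that transcribe their own genome, and 6 of the 10 genes passed the test across all 10009 genes (limma on log2(TPM + 1), Benjamini-Hochberg adjusted p under 0.05, with the spread shared over the 12 libraries). Higher in 4-cell embryos were 5 genes, Hnrnpa2b1, Hnrnpd, Hnrnpl, Hnrnpc and Hnrnpu, beside a background of 41.4% of all genes called higher. Raly was called lower, as were 14.1% of all genes. The median change of the 10 genes was 2.19 on the log2 scale, against 1.20 for all genes tested, and 7 of the 10 lay above that median. Quantile normalization gives every library the same distribution, so it removes the shift of all genes by its design (median −0.05) and does not test it. Under it 3 of the 10 genes remained past the threshold, Raly, Hnrnpa2b1 and Hnrnpd. The share of all genes called under it was not taken.

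Raly fell by 2.82 on the log2 scale (SE 0.96, limma adjusted p = 0.0222), from a mean of 95.4 to 11.8 TPM, a ratio of 0.124. The study picked Raly out of these same libraries for a relation with the number of splicing events, which was highest at the 4-cell stage, so this direction is not independent evidence. The call was kept in 20 of 22 alternatives and lost without oocyte replicate 1 (fell by 2.07, adjusted p = 0.164) and without 4-cell replicate 2 (fell by 2.28, adjusted p = 0.152).

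Hnrnpa2b1 rose by 3.32 on the log2 scale (SE 0.83, limma adjusted p = 0.00384), and by 2.83 (SE 0.76, adjusted p = 0.00585) without the transcripts that lack the start codon. Hnrnpd rose by 3.26 (SE 0.69, adjusted p = 0.00123), which is 10.9-fold in mean TPM. The calls of these 2 genes held in all 22 alternatives. Hnrnpl rose by 2.87 (SE 0.69, adjusted p = 0.00290) and lost its call only under quantile normalization (adjusted p = 0.182). Hnrnpc rose by 2.45 (SE 0.79, adjusted p = 0.0169) and kept its call in 18 alternatives, with the loss under quantile normalization, without oocyte replicate 2 and without either 4-cell library (highest adjusted p = 0.121). Hnrnpu rose by 2.21 (SE 0.84, adjusted p = 0.0373) and kept its call in 15 alternatives, with a highest adjusted p of 0.191.

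The other 4 genes did not pass. Hnrnpa1 differed by 2.17 (SE 0.94, adjusted p = 0.0635) and Hnrnph1 by 2.08 (SE 0.87, adjusted p = 0.0542), and each gained a call in 7 alternatives, among them the fit without either library of the 2-cell or the blastocyst stage. In both genes the 4-cell libraries lay above the oocyte libraries. The 4-cell libraries of Hnrnpf (difference 0.75, SE 0.82, adjusted p = 0.454) and Hnrnpk (difference −0.28, SE 0.80, adjusted p = 0.786) overlapped with those of the oocyte.

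**Figure D2:**
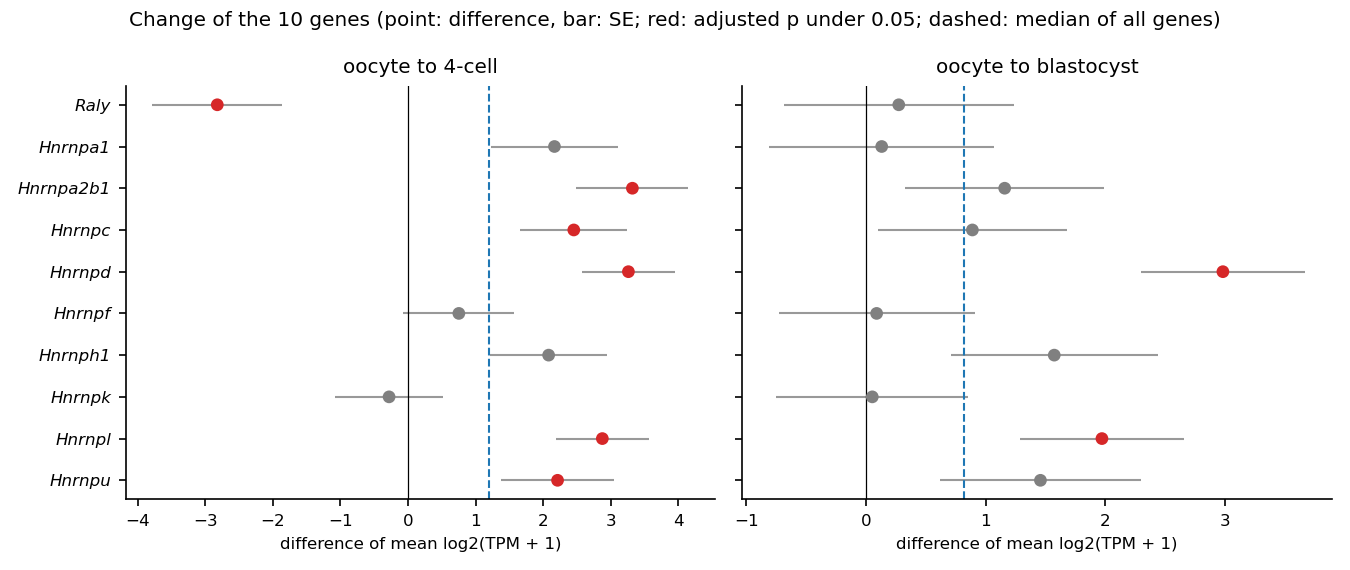
Difference of mean log2(TPM + 1) for each of the 10 genes from oocyte to 4-cell (left) and from oocyte to blastocyst (right), as points with bars of 1 SE, red where the adjusted p is under 0.05, with a dashed line at the median of all genes tested (1.20 and 0.82). On the left 5 genes are red to the right of 0 and Raly is red at −2.82, and on the right only Hnrnpd (2.98) and Hnrnpl (1.97) are red.

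Between consecutive stages, 1 gene in 1 step passed the test. Hnrnpd rose from the 1-cell to the 2-cell stage by 2.37 on the log2 scale (SE 0.69, limma adjusted p = 0.0173), in a step in which 26.1% of all genes were called higher and 6.19% lower. This call was kept in 17 of 22 alternatives, with a highest adjusted p of 0.165 among the rest. Without 1-cell replicate 1 the change was 2.09 (adjusted p = 0.0930) and without 2-cell replicate 1 it was 1.94 (adjusted p = 0.0656), while it remained called (adjusted p = 0.0492) when both libraries that stood apart were left out. Hnrnpl differed in the same step by 1.84 (SE 0.69, adjusted p = 0.0546).

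From the 2-cell to the 4-cell stage no gene of the 10 passed limma at an adjusted p under 0.05, beside 3.24% of all genes. At an unadjusted p under 0.05, for which the share of all genes was not taken, there were 4 of the 10. These 4 were Hnrnpa1 (difference 3.08, adjusted p = 0.0768), Hnrnpa2b1 (2.50, adjusted p = 0.0942), Hnrnpc (2.32, adjusted p = 0.103) and Hnrnph1 (1.99, adjusted p = 0.175). The median change of the 10 genes in this step was 1.22, against 0.04 for all genes. The number called in this step changed when 2-cell replicate 2 was left out. The share of all genes called in that fit was not taken.

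No gene of the 10 was called from oocyte to 1-cell (0.380% of all genes called, 0 of the 10 at an unadjusted p under 0.05), from 4-cell to 8-cell (1.68% of all genes, 0 of the 10) or from 8-cell to blastocyst (3.00% of all genes, 1 of the 10). The 1 gene in the last step was Raly, which differed by 2.53 on the log2 scale (limma adjusted p = 0.214), with 11.7 and 23.6 TPM in 8-cell embryos and 37.3 and 272 TPM in blastocysts.

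From oocyte to blastocyst, a comparison that shares its oocyte libraries with the one to the 4-cell stage, 2 of the 10 genes passed. Hnrnpd rose by 2.98 on the log2 scale (SE 0.69, limma adjusted p = 0.00232) and held its call in all 22 alternatives. Hnrnpl rose by 1.97 (SE 0.69, adjusted p = 0.0256) and kept its call in 16, with a highest adjusted p of 0.393. Of all genes, 35.4% were called higher and 18.0% lower, and none of the 10 was called lower. The median of the 10 was 1.02 against 0.82 for all genes. Raly differed by 0.27 (SE 0.96, adjusted p = 0.828), and by −1.14 without blastocyst replicate 2. The largest uncalled differences were those of Hnrnph1 (1.57, adjusted p = 0.140), Hnrnpu (1.46, adjusted p = 0.159) and Hnrnpa2b1 (1.16, adjusted p = 0.253), and Hnrnph1 and Hnrnpc gained a call when the 2 libraries that stood apart were left out together.

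Of the 57 transcripts of the 10 genes, 24 had the intron chain of a GENCODE transcript and 33 did not, and 53 passed the filter on low values. From oocyte to 4-cell 22 of these 53 were called higher and 1 lower, beside 40.7% and 12.3% of all 20250 transcripts tested. From oocyte to blastocyst 11 were called higher and 4 lower, beside 26.7% and 16.3%. The transcript called lower at the 4-cell stage was Raly-202, and those called lower at the blastocyst stage were 2 of Hnrnpa1 and 2 of Hnrnpc. Of the 57, 34 made up at least 10% of their gene's TPM in the mean of a stage.

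Raly had 2 transcripts, Raly-202 and Raly-203, which differ by an 83-base exon with no coding base (chr2:154821007-154821089). Raly-202, which includes the exon, measured 102.5 and 36.7 TPM in oocytes and 11.0 and 4.37 TPM in 4-cell embryos, and fell by 2.96 on the log2 scale (SE 1.01, limma adjusted p = 0.0269). Raly-203 measured 39.1 and 12.5 TPM in oocytes and 5.47 and 2.82 TPM in 4-cell embryos (difference −2.22, SE 0.94, adjusted p = 0.0636). The share of Raly TPM that included the exon stayed between 0.61 and 0.78 in all 14 libraries, so the 2 transcripts kept a similar ratio while their sum ranged from 7.19 to 272 TPM.

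The Hnrnpa1 transcripts ended at 2 places, a proximal last exon of 704 bases (chr15:103244256-103244959) and a distal one of 152 bases (chr15:103246545-103246696). Transcripts with the distal end held 53.3% and 51.1% of Hnrnpa1 TPM in the oocyte libraries, 44.1% and 62.4% at the 1-cell, 52.6% and 37.9% at the 2-cell, 9.61% and 12.6% at the 4-cell, 16.8% and 43.0% at the 8-cell and 3.66% and 7.94% at the blastocyst stage. The 4-cell and blastocyst libraries thus lay below every oocyte, 1-cell and 2-cell library, whereas 8-cell replicate 2 lay within the range of those. In TPM the distal transcripts summed to 136 and 134 in oocytes and to 112 and 146 in 4-cell embryos, while the proximal Hnrnpa1-202 went from 119 and 126 to 995 and 959 TPM, a rise of 2.99 on the log2 scale (SE 1.06, limma adjusted p = 0.0314). Between oocyte and blastocyst the main distal transcript, TCONS_00007186, fell by 2.92 (SE 0.80, adjusted p = 0.0110), from 122 and 121 to 24.0 and 9.54 TPM. Its intron chain was found in the 1-cell long-read pool alone. Of the other 2 Hnrnpa1 transcripts, Hnrnpa1-201, which carries a 159-base coding exon, rose to the 4-cell stage (4.78, adjusted p = 0.00166), and TCONS_00007189 fell to the blastocyst stage (−3.58). Both were chosen after their values were seen.

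**Figure D3:**
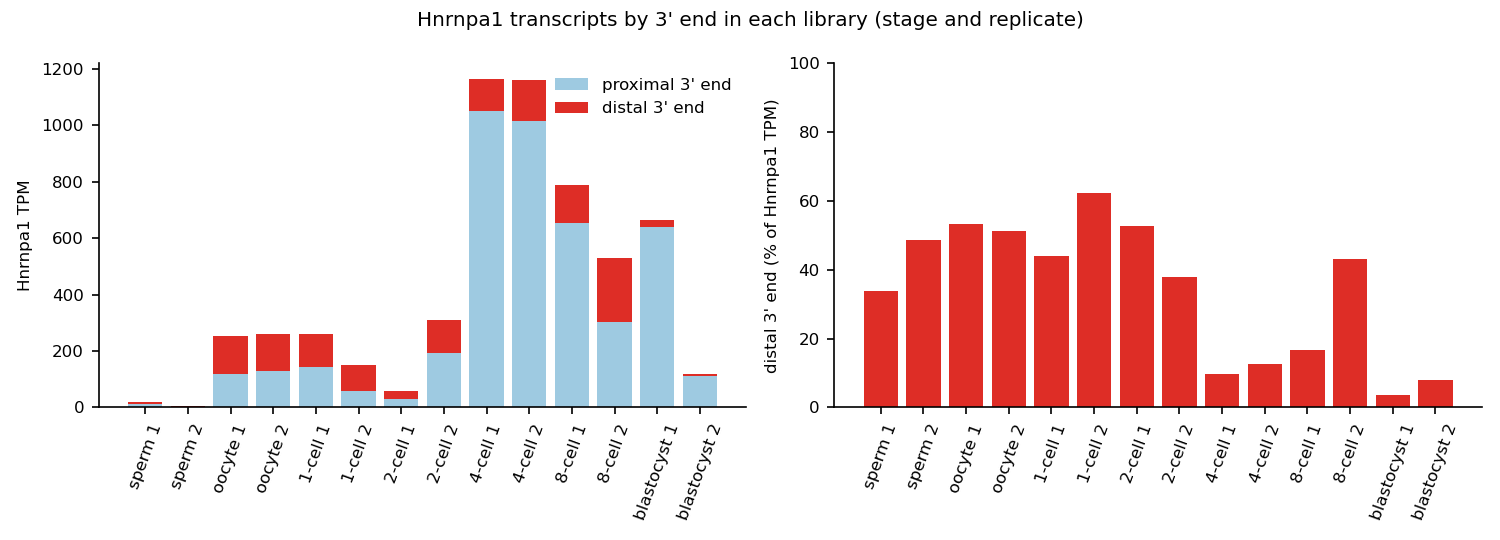
Hnrnpa1 TPM in each library, stacked by transcripts with the proximal (blue) and the distal (red) 3′ end (left), and the distal share in percent (right). The distal share is 53.3% and 51.1% in oocytes, 9.61% and 12.6% in 4-cell embryos and 3.66% and 7.94% in blastocysts.

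Both Hnrnpd transcripts rose to the 4-cell stage, Hnrnpd-211 by 3.19 (limma adjusted p = 0.00262) and Hnrnpd-201 by 2.96 on the log2 scale (adjusted p = 0.00591). Hnrnpd-211 went from 4.34 and 6.00 to 60.6 and 49.3 TPM, and Hnrnpd-201 from 2.58 and 2.38 to 39.3 and 17.2 TPM. The rise of Hnrnpd was thus carried by both of its isoforms.

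Hnrnpu had 2 transcripts, Hnrnpu-201 and TCONS_00001376, and the latter has 1 more intron of 558 bases (chr1:178337077-178337634) within the annotated first exon. The annotated start codon (chr1:178337569-178337571) lies in that intron. TCONS_00001376 was listed at 0 and 35.5 TPM in the oocyte libraries and at 200.3 and 147 TPM in the 4-cell libraries, a rise of 4.84 on the log2 scale (SE 1.33, limma adjusted p = 0.00945) that rests in part on the value of 0. Hnrnpu-201 measured 30.1 and 28.6 TPM in oocytes and 47.8 and 26.5 TPM in 4-cell embryos (difference 0.27, SE 1.35, adjusted p = 0.881). As the short reads were divided between the 2, the gene-level rise of Hnrnpu came with a transcript without the annotated start. Its additional intron was not checked for splice-site sequences. In the long-read pools the intron chain of TCONS_00001376 was found at the 2-cell stage alone. That of Hnrnpu-201 was found at the 4-cell and the 8-cell stage, so the long reads do not place TCONS_00001376 in the 4-cell pool.

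Hnrnpc was assembled as 14 transcripts, and 7 of them reached 10% of its TPM in a stage. Hnrnpc-201 went from 20.1 and 6.21 TPM in oocytes to 100.5 and 94.6 TPM in 4-cell embryos (a rise of 3.00 on the log2 scale, limma adjusted p = 0.0114) and measured 4.00 and 0.00149 TPM in blastocysts, where it was called lower than in oocytes (fell by 2.46, adjusted p = 0.0347). Hnrnpc-207, in contrast, measured 21.1 and 6.94 TPM in oocytes, 112 and 109 TPM in 4-cell embryos and 64.6 and 19.5 TPM in blastocysts. Hnrnpc-209 rose in both comparisons, by 2.70 (adjusted p = 0.0102) and by 2.76 (adjusted p = 0.0109), from 1.63 and 1.34 TPM in oocytes to 18.6 and 12.2 TPM in 4-cell embryos and 33.5 and 7.24 TPM in blastocysts. The remaining 4 of the 7, Hnrnpc-206, Hnrnpc-211, TCONS_00006569 and TCONS_00006574, each peaked at no more than 72.4 TPM. Of these, TCONS_00006574 rose in both comparisons (2.49 and 2.40) and TCONS_00006569 fell to the blastocyst stage (−2.32, adjusted p = 0.0258).

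Hnrnpa2b1 was assembled as 11 transcripts. At the 4-cell stage most of its TPM was that of TCONS_00017349, a 5-exon transcript of 767 bases without the annotated start codon, listed at 17.9 and 0 TPM in oocytes, 628 and 589.9 TPM in 4-cell embryos and 594 and 0 TPM in 8-cell embryos. Among the transcripts that span the start codon, Hnrnpa2b1-204 went from 12.8 and 34.8 TPM in oocytes to 202 and 171 TPM in 4-cell embryos (a rise of 3.07 on the log2 scale, limma adjusted p = 0.00387), and Hnrnpa2b1-201 from 3.07 and 5.13 TPM to 35.7 and 33.5 TPM (a rise of 2.83, adjusted p = 0.00736). Hnrnpa2b1-210 measured 4.75 and 29.7 TPM in oocytes and 47.2 and 44.5 TPM in 4-cell embryos (difference 1.82, adjusted p = 0.119). TCONS_00017353 rose by 3.86 (adjusted p = 0.000844), and TCONS_00017345, another transcript without the start codon, differed by −0.22 (adjusted p = 0.858).

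In Hnrnpf and Hnrnph1 some lesser transcripts passed the test, while the leading ones did not. TCONS_00017010, which held 76.8% of Hnrnpf TPM in oocytes and 39.5% in 4-cell embryos, measured 110 (109.9) and 392 TPM in oocytes and 175 and 169.9 TPM in 4-cell embryos (difference −0.27, limma adjusted p = 0.818). Its intron chain was found in the 4-cell long-read pool alone, so its oocyte share rests on short reads. TCONS_00017009 rose by 4.17 on the log2 scale (adjusted p = 0.000907), from 2.25 and 7.47 TPM to 95.6 and 91.7 TPM. It has 4 exons and starts at chr6:117907782, while TCONS_00017010 has 5 exons and starts close by, at chr6:117907789. TCONS_00017008 rose by 2.88 (adjusted p = 0.0301). Hnrnpf-201 differed by 1.73 (adjusted p = 0.207). Of the 4 Hnrnph1 transcripts, TCONS_00002675 rose by 3.83 (adjusted p = 0.00149), from 1.12 and 0.77 TPM to 26.9 and 26.2 TPM. The leading Hnrnph1-201 measured 11.2 and 25.8 TPM in oocytes and 54.1 and 50.3 TPM in 4-cell embryos (difference 1.56, adjusted p = 0.152), TCONS_00002673 differed by 2.00 (adjusted p = 0.0995) and Hnrnph1-203 by 0.92 (adjusted p = 0.277). None of the 4 leading Hnrnpk transcripts, Hnrnpk-224, Hnrnpk-201, TCONS_00005756 and TCONS_00005750, was called in either comparison, with adjusted p-values of 0.311 or more. The only transcript of Hnrnpl is a 6-exon one of 969 bases that lacks the annotated start codon, so its values describe the 3′ part of the gene.

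The merged transcripts of the 10 genes gave 43 alternative splicing (AS) events of the 5715 in the series, 19 alternative first exons, 13 skipped exons, 6 alternative 3′ splice sites, 4 alternative 5′ splice sites and 1 alternative last exon. Hnrnpk had 13, Hnrnpf 10, Hnrnpc 9, Hnrnpa2b1 6, Hnrnph1 2 and Raly, Hnrnpa1 and Hnrnpd 1 each, while Hnrnpl and Hnrnpu had none. The percent spliced in (PSI, from 0 to 1) was the TPM of the transcripts with the alternative part, or with the first named end, over that of all transcripts of the event. In 30 of the 43 events the alternative part held no coding base, and in 12 all of its bases were coding.

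The wholly coding events show which protein isoforms the embryo could make, so the sequences of 4 of them are given here from the GENCODE vM21 transcripts (GRCm38), 5′ to 3′ on the gene's strand, with the alternative part in capitals and up to 20 flanking coding bases in lower case. The first 3 are the 36-base exon that makes hnRNP B1 out of A2 (chr6:51467391-51467426), the 39-base extension that makes hnRNP C2 out of C1 (chr14:52081789-52081827) and a 30-base 5′ splice site extension of Hnrnph1 (chr11:50383891-50383920).
Hnrnpa2b1 36-base exon: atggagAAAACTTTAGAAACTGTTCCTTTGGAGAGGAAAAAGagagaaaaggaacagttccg
Hnrnpc 39-base extension: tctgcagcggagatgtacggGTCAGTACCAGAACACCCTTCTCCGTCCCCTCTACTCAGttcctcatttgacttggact
Hnrnph1 30-base extension: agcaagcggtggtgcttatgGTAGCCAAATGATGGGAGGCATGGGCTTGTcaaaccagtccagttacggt

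The next lies in the glycine-rich region of the D protein and is shown because it repeats a short word. It is the 147-base exon of Hnrnpd (chr5:99963731-99963877).
Hnrnpd 147-base exon: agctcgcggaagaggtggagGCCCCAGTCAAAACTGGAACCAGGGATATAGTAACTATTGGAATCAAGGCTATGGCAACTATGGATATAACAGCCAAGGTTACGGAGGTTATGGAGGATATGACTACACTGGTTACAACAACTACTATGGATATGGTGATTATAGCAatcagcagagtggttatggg

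The word TATGG, which read in frame spells tyrosine and the start of a glycine codon, was chosen after the exons were read. On the transcript strand it occurs 5 times in the Hnrnpd exon, and its reverse complement CCATA occurs in no place there. The repeat is not particular to Hnrnpd. TATGG occurs 4 times in the 159-base coding exon of Hnrnpa1 and 4 times in the 120-base coding exon of Hnrnpa2b1, both without CCATA. Of 89854 internal coding exons of 100–200 bases in the annotation, each counted once per position, 11.0% held TATGG at least once and 0.0645% held it at least 3 times, and 6.92% held CCATA. No copy of either occurs in the 139-base exon of Hnrnph1 (chr11:50381459-50381597), a coding exon whose length is not a multiple of 3. This is a description of the letters only.

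Inclusion of the coding parts differed widely among the genes. The 159-base exon of Hnrnpa1 had a PSI of 0.04–0.12 in the 14 libraries and the B1 exon of Hnrnpa2b1 one of 0.08–0.29, so the shorter forms made up most of both. The 147-base exon of Hnrnpd lay between 0.37 and 0.74, and the 120-base exon of Hnrnpa2b1 between 0.26 and 0.73. The C2 extension of Hnrnpc had a PSI of 0.26 and 0.25 in oocytes, 0.37 and 0.38 in 4-cell embryos, 0.46 and 0.43 in 8-cell embryos and 0.34 and 0.31 in blastocysts. Its difference from oocyte to 4-cell of 0.12 was not called (adjusted p = 0.174 in limma), nor were those of the 4 exons before it in either comparison.

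Tested on the log2 ratio of the 2 groups of transcripts, 9 of the 43 events were called between oocyte and 4-cell embryo (limma adjusted p under 0.05 and a PSI difference over 0.1), beside 17.4% of all 5544 events tested. Between oocyte and blastocyst 7 were called, beside 15.7%. At an unadjusted p under 0.05 in limma, without the PSI condition, the counts were 14 and 11. The share of all events at that threshold was not taken, so these 2 counts have no background. The called events lay in Hnrnpc, Hnrnpf, Hnrnpa2b1 and Hnrnph1 at the 4-cell stage and in Hnrnpc and Hnrnpa2b1 at the blastocyst stage, 5 of them in both. Of the 11 events called in either comparison, 10 held no coding base.

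The exception was the 30-base extension of Hnrnph1 printed above. Its PSI was 0.93 and 0.98 in the oocyte libraries, 0.92 and 0.91 at the 1-cell, 0.93 and 0.93 at the 2-cell, 0.73 and 0.74 at the 4-cell, 0.74 and 0.73 at the 8-cell and 0.81 and 0.82 at the blastocyst stage. The 6 libraries from the 4-cell stage on thus lay below the 6 earlier ones. The difference was −0.22 from oocyte to 4-cell (limma adjusted p = 0.0139) and −0.14 from oocyte to blastocyst (adjusted p = 0.0514). The 139-base exon of the same gene was lowest in the 2-cell libraries (0.39 and 0.32) among those from oocyte to blastocyst, the other 10 of which gave 0.59–0.91, and was not called in either comparison.

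In Hnrnpc, 4 called events describe 1 region between its first exons and its coding part, where a 1223-base exon (chr14:52097322-52098544) spans a 26-base exon and the sequence on both sides of it. The 1223-base exon had a PSI of 0.35 and 0.39 in oocytes, 0.06 and 0.06 in 4-cell embryos and 0.02 and 0.02 in blastocysts, differences of −0.31 (limma adjusted p = 0.00257) and −0.35 (adjusted p = 0.000567). The extensions of 693 and 504 bases, which share its sequence, fell by 0.14 and 0.14 at the 4-cell and by 0.16 and 0.16 at the blastocyst stage. The 26-base exon differed by −0.10 at the 4-cell stage (adjusted p = 0.264) and fell by 0.25 at the blastocyst stage (adjusted p = 0.0207), from 0.73 and 0.72 to 0.48 and 0.48. As these events share transcripts, they are not separate observations.

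In Hnrnpa2b1, the 3 called events lie after the coding part, within an exon of 136 bases (chr6:51461920-51462055) and its parts of 63 and 73 bases. The PSI of the 136-base exon was 0.86 and 0.85 in oocytes, 0.32 and 0.40 in 4-cell embryos, 0.12 and 0.05 in 8-cell embryos and 0.36 and 0.34 in blastocysts, with differences of −0.49 (limma adjusted p = 0.00454) and −0.50 (adjusted p = 0.00410). The 63-base part fell by 0.25 (adjusted p = 0.0176) and 0.22 (adjusted p = 0.0252), and the 73-base part differed by −0.24 at the 4-cell (adjusted p = 0.0730) and fell by 0.27 at the blastocyst stage (adjusted p = 0.0446). The transcripts that include these parts lack the annotated start codon. For the 136-base exon the including transcript was TCONS_00017345, which differed by −0.22 from oocyte to 4-cell (limma adjusted p = 0.858). The 3 transcripts of that event without the exon span the start codon.

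In Hnrnpf, 3 pairs of first exons were called at the 4-cell stage and none at the blastocyst stage, each set against the most downstream first exon (chr6:117916949-117917071). The 98-base first exon (chr6:117907782-117907879) had a share of 0.41 and 0.37 in oocytes and 0.96 and 0.96 in 4-cell embryos (a rise of 0.57, limma adjusted p = 0.00523), with 0.59 and 0.76 in blastocysts. The 75-base first exon (chr6:117908098-117908172) went from 0 and 0 to 0.85 and 0.66 (a rise of 0.76, adjusted p = 0.00589), and the 127-base one (chr6:117906713-117906839) rose by 0.14 (adjusted p = 0.0165). In oocytes the transcripts of the first pair summed to only 5.54 and 20.2 TPM and those of the second to 3.29 and 12.8 TPM. None of these pairs includes TCONS_00017010, which starts within the 98-base exon (at chr6:117907789) and held 76.8% of Hnrnpf TPM in oocytes. The shares thus compare single transcripts and do not describe all starts of the gene.

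Of the members without a called event, Hnrnpk had the largest PSI difference in 4-cell embryos, of 0.42 for a 354-base first exon against a 34-base one (adjusted p = 0.0880 in limma), whose oocyte value comes from replicate 2 alone. The largest differences of the others were −0.10 in Raly (adjusted p = 0.198), 0.02 in Hnrnpa1 and −0.05 in Hnrnpd. The 72-base coding exon of Hnrnpk (chr13:58396188-58396259) differed by 0.07 in blastocysts (adjusted p = 0.0480), under the PSI difference required.

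**Figure D4:**
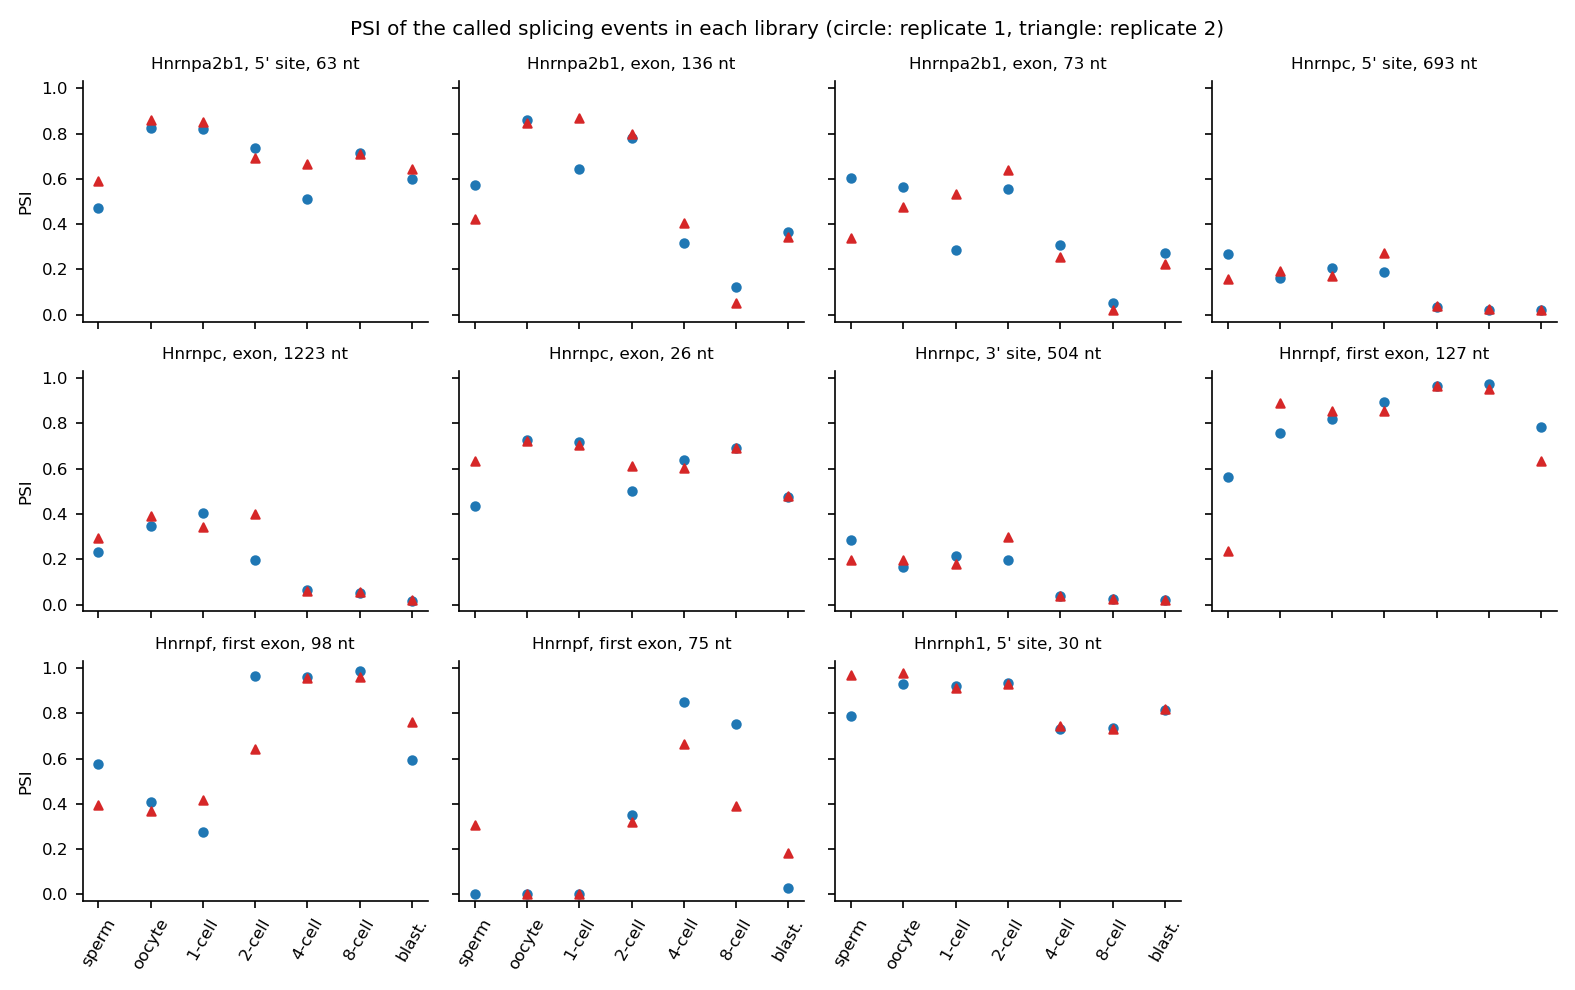
PSI (0 to 1) by stage of the 11 events called from oocyte to 4-cell or from oocyte to blastocyst, 1 panel per event, with circles for replicate 1 and triangles for replicate 2. The 1223-base exon of Hnrnpc runs from 0.35 and 0.39 in oocytes to 0.06 and 0.06 in 4-cell embryos, and the 30-base extension of Hnrnph1 from 0.93 and 0.98 to 0.73 and 0.74.

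In the long-read pools, of which there is 1 per stage and thus no replicate, transcripts of Hnrnpa1, Hnrnpa2b1, Hnrnpc, Hnrnpf and Hnrnpk were found in all 7 pools, those of Hnrnpd, Hnrnph1 and Hnrnpu in 5 and the transcript of Hnrnpl in 1 (4-cell). Raly was found in 3 pools, with 1 transcript in sperm, 2 in the oocyte and 2 in the blastocyst pool, and in none of the pools from the 1-cell to the 8-cell stage. The short-read libraries nevertheless held 45.5 and 61.6 TPM of Raly at the 1-cell stage when quantified against the merged transcripts. From the 1-cell stage on Hnrnpc had the most transcripts of the 10 genes in every pool, with 2 in the sperm, 5 in the oocyte, 9 in the 1-cell, 8 in the 2-cell, 17 in the 4-cell, 16 in the 8-cell and 16 in the blastocyst pool.

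The study singled out Raly for its relation with the number of AS events, so this relation is a description here and is given without a p-value. The pools held 946 events in the oocyte, 1102 in the 1-cell, 993 in the 2-cell, 1279 in the 4-cell, 1227 in the 8-cell and 848 in the blastocyst pool, while mean Raly was 95.4, 53.6, 43.2, 11.8, 17.7 and 155 TPM. Over these 6 stages Pearson's r was −0.91 and Spearman's rho −0.94, and r was −0.84 without the blastocyst and the oocyte, the 2 stages farthest from the median level. Of the 10009 genes tested, 27 (0.270%) had an r as far from 0. With the level from replicate 1 alone r was −0.57, from replicate 2 alone −0.71, and without the 2 libraries that stood apart −0.52. The number of events at each point comes from 1 long-read pool, and the part of its depth in that number was not tested.

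Among the other 9 genes, r with the number of events was 0.76 for Hnrnpa2b1 and Hnrnpc, 0.73 for Hnrnpa1, 0.64 for Hnrnpl, 0.45 for Hnrnpu, 0.44 for Hnrnpd and Hnrnph1, 0.30 for Hnrnpf and −0.33 for Hnrnpk. Without the 4-cell and the 8-cell stage it turned to −0.85 for Hnrnpa1, −0.80 for Hnrnpa2b1, −0.52 for Hnrnpc and −0.71 for Hnrnpl, so these 4 values rest on those 2 stages. Each other gene was also taken without the 2 stages farthest from its median level. Hnrnpk then gave −0.997 (without 2-cell and 1-cell), farther from 0 than Raly. Hnrnpd gave 0.80 and Hnrnpu 0.59 (without oocyte and 1-cell), and Hnrnph1 0.36 and Hnrnpf −0.38 (without 4-cell and 1-cell). Of the genes that the study named for the same relation, Phf5a gave 0.91 and, without the 4-cell and the 8-cell stage, 0.72, and Snrpd3 gave 0.87 and 0.35.

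**Figure D5:**
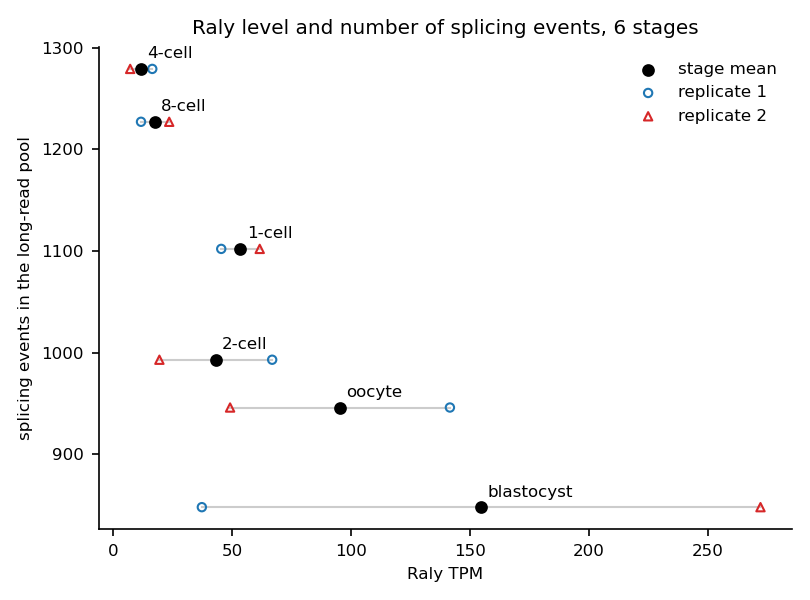
Number of splicing events in the long-read pool of each of 6 stages against Raly TPM, with filled circles for the stage mean and open symbols for the 2 libraries, joined by a line. The 4-cell (1279 events, 11.8 TPM) and 8-cell (1227 events, 17.7 TPM) stages lie at the upper left, and the blastocyst (848 events) spans 37.3 to 272 TPM.

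Over those 12 libraries, which are not independent because pairs share a stage, the log2 levels of Raly correlated negatively with all 9 hnRNP genes, from r = −0.25 (Hnrnpk) to −0.77 (Hnrnpa1), where the median over all genes was −0.24. The genes most alike were Hnrnpd and Hnrnpl (r = 0.90), Hnrnpa1 and Hnrnpc (0.90), Hnrnph1 and Hnrnpa1 (0.88), Hnrnpu and Hnrnpd (0.86), Hnrnpa2b1 and Hnrnpl (0.85) and Hnrnpf and Hnrnpk (0.69). The 5 genes most like Raly were 2300009A05Rik (0.94), Itfg1 (0.89), Arf5 (0.88), Hist1h1c (0.88) and Rexo2 (0.86). Without blastocyst replicate 2, Rexo2 and Itfg1 ranked 2 and 3, while 2300009A05Rik, Arf5 and Hist1h1c ranked 13, 14 and 100.

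Of 21 further genes of the hnRNP family and its relatives, 20 had a merged transcript (all but Ptbp3) and were tested. From oocyte to 4-cell 7 were called higher and 1 lower, beside 41.4% and 14.1% of all genes, with a median change of 1.27 on the log2 scale against 1.20 for all genes. The largest rises were those of Syncrip, from 1.06 to 258 TPM (7.04, limma adjusted p = 7.42e-06), and Hnrnph2, from 6.96 to 111 TPM (4.04, adjusted p = 0.00296). Ptbp2, a repressor of neural and germ-cell exons, fell from 66.4 to 4.22 TPM (−3.50, adjusted p = 0.00120), and Ralyl, the paralogue of Raly, differed by −1.86 (adjusted p = 0.0779). From oocyte to blastocyst 5 were called higher and 3 lower, beside 35.4% and 18.0% of all genes, led by Syncrip (5.58) and Hnrnpm (3.47) and by Ptbp2 (−4.55) and Pcbp3 (−3.67).

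In the consecutive steps, genes of this list were called only from the 1-cell to the 2-cell stage, where 3 rose and none fell, beside 26.1% and 6.19% of all genes, against 0.380% to 3.24% of all genes called in the other steps. The largest changes were those of Syncrip (4.94, limma adjusted p = 0.000292) and Hnrnpab (4.08, adjusted p = 0.00777), and the lowest values, neither of them called, those of Ralyl (−0.58) and Pcbp3 (−0.51). In the other 4 steps the values at both ends included Pcbp3 (1.53) against Pcbp2 (−1.56) and Hnrnpab (−1.17) from oocyte to 1-cell, and, into the 4-cell stage, Hnrnph2 (2.37) and Hnrnpa0 (2.16) against Ptbp2 (−2.83) and Ralyl (−1.62). Into the 8-cell stage they were Hnrnpul1 (0.94) and Pcbp1 (0.54) against Pcbp3 (−1.89) and Hnrnph2 (−1.83), and into the blastocyst stage Pcbp4 (2.68) and Hnrnph3 (1.14) against Hnrnpab (−1.80) and Syncrip (−1.48). None of these changes was called.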

How the data were processed

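Per the labels and the study's methods, the authors amplified cDNA with Smart-seq2, sequenced 14 short-read libraries (Illumina) and 7 long-read pools (PacBio, 2 cDNA batches mixed per pool), built transcripts with Iso-Seq3, GMAP and cDNA_Cupcake on mm10, merged the 7 stages with Cuffmerge and quantified each library with salmon. The deposited values used are salmon TPM per transcript, which have the same sum in every library and keep no depth, so counts could not be recovered and no interval was computed. Sperm are DBA/2J in the titles and DBA/2N in the protocol, and the 8-cell replicate numbers follow the titles.

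Merged transcripts were assigned to GENCODE vM21 genes with Python 3.11.15, and AS events were rebuilt from their exon structures after the definitions of SUPPA2. Features that reached 1 TPM in 2 or more of 12 libraries were tested with limma 3.58.1 in R 4.3.3 (lmFit, contrasts.fit, eBayes) on log2(TPM + 1), stage as the only term, Benjamini-Hochberg over all features, so a fold change understates that of low genes. Events used log2((inclusion TPM + 1)/(other TPM + 1)). Sperm entered no test. The fits and event definitions were tested on simulated data.

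Members and lists were chosen with earlier results of these data known. Named in the text were the 10 genes, their transcripts with at least 10% of the gene's TPM in the mean of a stage from oocyte to blastocyst, each event called and the largest PSI difference per gene, the 2 largest rises and falls of the further hnRNP list per comparison, the 5 genes with the highest r with Raly, the gene among the 10 nearest to each, Phf5a and Snrpd3, except 1 gene that is not reported here. Features named beyond this rule (the coding events and the transcripts said to be so) were chosen after their values were seen. The alternatives were another pseudocount (0.1), no filter, a filter at a TPM of 5, quantile normalization, only the libraries compared, a replicate block, weights by stage, a stricter transcript assignment, other ways to take the Raly level and count the events, and each library left out, and, chosen after seeing the data, no transcripts that do not reach the annotated start codon (the single one of Hnrnpl was kept) and no libraries that stood apart.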

Additional observations from a re-analysis of the deposited data

How the results depend on the processing

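Of the counts of called genes, 61 of 70 under the alternatives other than leaving out 1 library stayed within 1.5 times the reported count, as did 74 of 84 with 1 library left out. From 1-cell to 2-cell no gene of the 10 was called under quantile normalization, with only the 4 libraries compared, or with weights by stage (0 each). From oocyte to 4-cell quantile normalization left 3. From oocyte to blastocyst 1 gene was called under each of these 3 settings, and 4 without the 2 libraries that stood apart. From 4-cell to 8-cell weights by stage called 1, Hnrnpa2b1. With only the 4 libraries, 4 transcripts and 4 events were called from oocyte to blastocyst, but 8 genes, 26 transcripts and 8 events from oocyte to 4-cell. The cause was not tested. For none of the alternatives, including the replicate block and each library left out, was the share of all features called taken. The counts under them therefore have no background and describe the members alone.

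With 1 library left out, the called genes ranged from 0 to 2 (1-cell to 2-cell), 0 to 3 (2-cell to 4-cell), 3 to 8 (oocyte to 4-cell) and 1 to 2 (oocyte to blastocyst), the called transcripts from 11 to 27 and 7 to 18, and the called events from 5 to 12 and 4 to 10, in the last 2 comparisons. The fewest genes were called from oocyte to 4-cell without 4-cell replicate 2, the fewest transcripts (11) and events (5) without 4-cell replicate 1. From oocyte to blastocyst the fewest transcripts (7) were called without blastocyst replicate 1 and the fewest events (4) without it or without oocyte replicate 2. Directions that reversed were all uncalled. From oocyte to blastocyst these were, under quantile normalization, Raly (−0.22), Hnrnpa1 (−0.20), Hnrnpf (−0.20) and Hnrnpk (−0.23), and Raly without the libraries that stood apart (−1.14). With 1 library left out, the log2 change from oocyte to blastocyst ranged from −1.14 to 1.69 for Raly (without blastocyst replicate 2 and 1), from −1.10 to 1.36 for Hnrnpa1, from −0.049 to 1.83 for Hnrnpc and from −0.79 to 0.90 for Hnrnpk (without blastocyst replicate 1 and 2) and from −0.93 to 1.11 for Hnrnpf (without oocyte replicate 1 and 2). From oocyte to 4-cell it ranged from −0.27 to 1.77 for Hnrnpf and from −1.09 to 0.53 for Hnrnpk (without oocyte replicate 1 and 2). The relation of Raly with the number of events moved to r = −0.57 and −0.71 with 1 replicate alone and −0.52 without the libraries that stood apart. With the level from own-stage transcripts r was −0.80. That level was 0 TPM from the 1-cell to the 8-cell stage, where the pools held no Raly transcript. The value of −0.80 therefore rests on the oocyte and the blastocyst and is no separate check.

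Replicate numbers did not pair the stages. Of 15 pairs of stages, 5 had deviations correlated at over 0.1 and 7 at under −0.1 (from −0.55 to 0.48). With the replicate block, 5 genes, 22 transcripts and 9 events were called from oocyte to 4-cell and 2, 14 and 6 from oocyte to blastocyst.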
